A study of Mus musculus with 16 samples.

Results

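The 41 genes described here are a list of blood vessel endothelial genes, given by their symbols. All 41 were found among the 57180 genes of the deposited tables, and all 41 passed the filter on low counts that left 17276 genes for testing. They were divided by known role into 13 junction, adhesion and surface proteins, 13 growth factor and guidance receptors and their partners, 7 transcription factors, and 8 genes of the Notch pathway and arteriovenous identity. RNA of whole fetal lungs was sequenced from the inbred mouse strains C57BL/6J (B6) and A/J at embryonic stage E14.5, from male fetuses according to the design text. Pregnant dams took the inverse pan-RAR agonist BMS493, a compound that holds retinoic acid receptors in their repressing state, at 3.75 µg per g per day by mouth between E9.5 and E14.5, or corn oil as control over the same days. The 4 groups of 4 libraries were therefore B6 control, B6 BMS493, A/J control and A/J BMS493. The labels name no engineered allele in any group, and exposure was through the dam in all. Whether fetuses came from shared litters or lungs were pooled is not told by the labels, so every p-value measures the spread between these libraries only.

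Blood vessels are lined by endothelial cells, which hold together through VE-cadherin and claudin junctions and read growth signals through the VEGF, angiopoietin, apelin and sphingosine phosphate receptors. In the fetal lung they form a plexus around the branching airways that will become the capillary bed for gas exchange, and they exchange signals with the epithelium and mesenchyme beside them. ETS factors such as Erg and Fli1, the SOXF factors Sox7, Sox17 and Sox18, and the Tal1 and Lmo2 complex switch endothelial genes on, while Notch signalling separates arterial from venous endothelium.

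Between 20105760 and 31838104 fragments were counted per library, of which 71.7% to 76.9% were assigned to genes. Fragments that mapped to several places made up 2.81% to 3.29% in the B6 libraries and 3.62% to 4.06% in the A/J libraries, and their part in the strain differences was not tested. The 1 build named by the submitters, GRCm39, is a B6 genome, and whether A/J reads were lost against it could not be tested from gene counts. This limit holds for every A/J value that is lower here. All 24 pairs of replicate libraries differed by more than counting noise. Replicate 3 of the B6 BMS493 group stood apart on the second principal component of all genes tested, at 47.8 against -15.6 to 9.07 for the other 15 libraries. The lung markers were present in every library, with Nkx2-1, the lung epithelial transcription factor, at 162 to 312 CPM, the count of a gene scaled to the size of its library, and Tbx4, a factor of lung mesenchyme, at 200.4 to 279 CPM. In bulk RNA a lower level of these genes can mean fewer endothelial cells, less RNA per cell or a change in other cells that make some of them. These cannot be told apart.

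Among the 41 genes, junction and receptor transcripts stood at the top of the order of levels. On a scale of CPM per kilobase of exon, which allows genes to be compared, the B6 control means ran from 88.2 for Cdh5, which encodes VE-cadherin, down to 2.78 for Vwf, the clotting glycoprotein that endothelial cells store. Cdh5 was followed by Aplnr at 70.1 and Cldn5 at 69.9, which differed from each other by less than the spread of their libraries, and then by Ephb4 at 64.9 and Plvap at 54.9. In A/J controls Cdh5 was again first at 66.5, while Ephb4 at 62.1 came before Cldn5 at 48.5, Plvap at 46.9 and Aplnr at 44.5. Cdh5 (SD 8.21) and Ephb4 (SD 5.96) differed by less than the spread of their libraries there, as did Cldn5 (SD 9.55), Plvap (SD 4.73) and Aplnr (SD 2.75) among themselves. The defining endothelial markers Pecam1, Cdh5, Kdr, Tek, Tie1, Emcn and Esam were all detected in all 16 libraries, with Emcn lowest of the 7 on this scale at 8.68 in B6 controls.

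In control lungs many of the endothelial genes were lower in A/J than in B6. A value printed beside an adjusted p or an interval is a log2 fold change from edgeR's quasi-likelihood test, with p adjusted by Benjamini-Hochberg over all genes tested. Of the 41 genes, 19 were lower at an adjusted p under 0.05 and 0 were higher, against 9.84% of all genes tested called lower and 7.04% called higher. The median log2 fold change of A/J against B6 was -0.31, which is 80.9% of the B6 level, and 40 of 41 values were below 0, with a range of -0.66 to 0.02. The median over all genes tested was 0.0081. All 4 A/J libraries lay below all 4 B6 libraries for 24 of the 41 genes, against 13.6% of all genes tested. Summed over the 41 genes, the B6 controls held 3731 to 4009 CPM and the A/J controls 2818 to 3363 CPM.

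The same comparison among BMS493 lungs, whose group levels come from 8 other libraries, called 21 of the 41 genes lower in A/J and 0 higher. Its calls use the same estimate of spread from all 16 libraries as those in controls, so the calls are not independent. Over all genes tested 12.0% were called lower and 7.93% higher there. The median log2 fold change was -0.35, or 78.7% of the B6 level, beside a median of 0.0032 over all genes tested, and 39 of 41 values were below 0, with a range of -0.85 to 0.12. All 4 A/J libraries lay below all 4 B6 libraries for 14 genes, against 10.8% of all genes tested. Without B6 BMS493 replicate 3 the count was 22 and the median -0.30. Called lower in both strain comparisons were 16 of the 41 genes, against 7.50% of all genes tested, which is 1296 genes. The 16 are 84.2% of the 19 called in controls and 76.2% of the 21 called with BMS493. Over all genes tested, the 1296 stand beside 1700 called lower in controls and 2077 with BMS493. For 8 genes, namely Pecam1, Esam, Tek, Tie1, Ramp2, Aplnr, S1pr1 and Erg, all 8 A/J libraries lay below all 8 B6 libraries, against 5.56% of all genes tested.

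**Figure D1:**
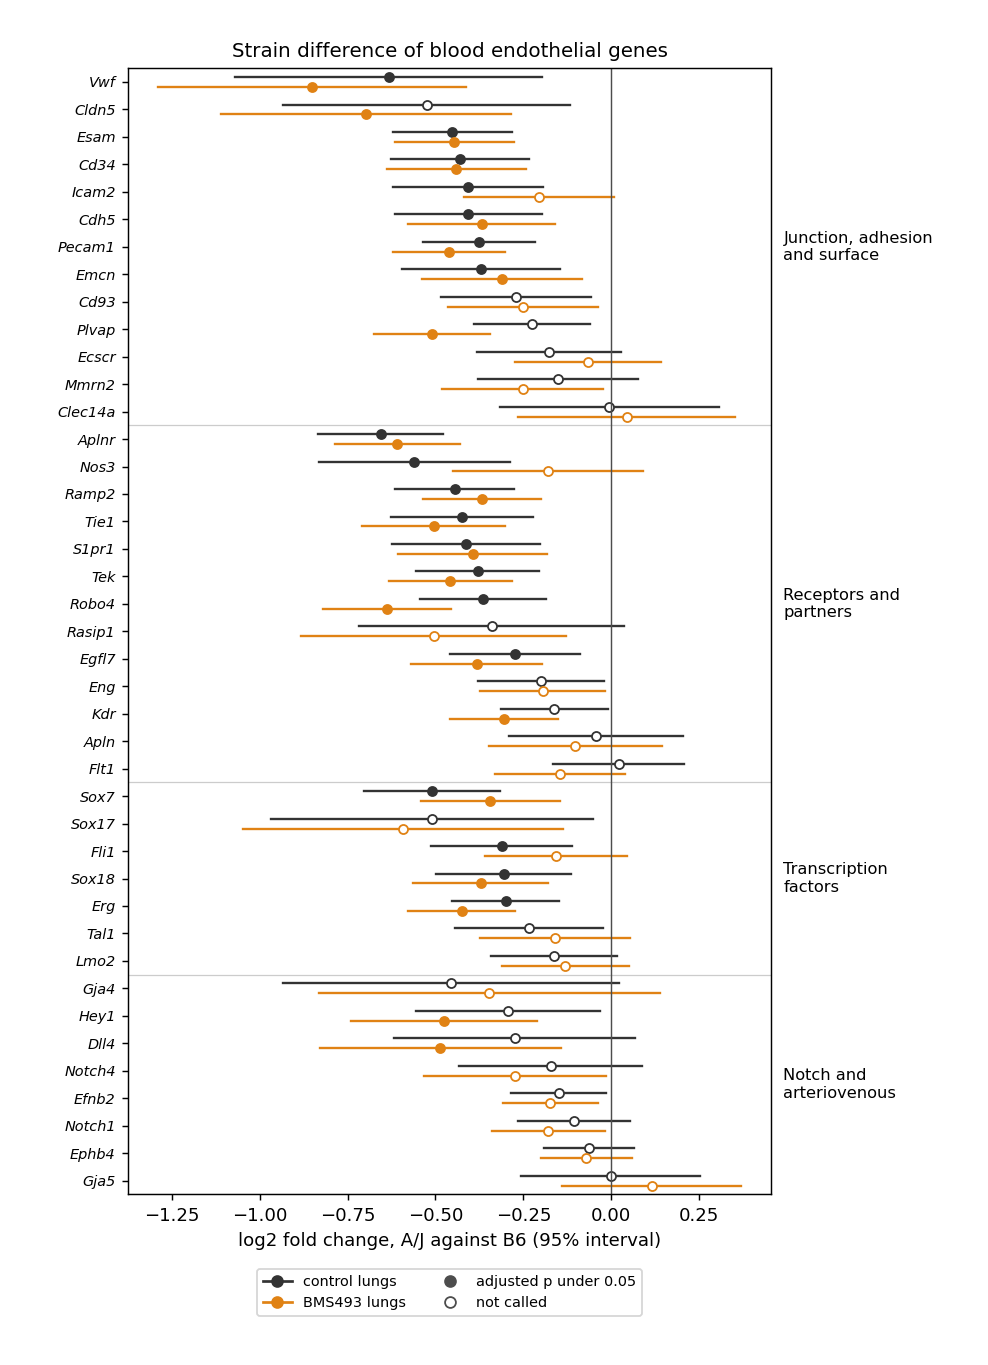
Log2 fold change of A/J against B6 with its 95% interval for each of the 41 genes (rows, grouped by role), in control lungs (dark) and BMS493 lungs (orange), with filled points at an adjusted p under 0.05. Most points lie left of 0 in both comparisons, from -0.66 to 0.02 in controls and from -0.85 to 0.12 with BMS493. Of the 8 Notch and arteriovenous genes, 0 are filled in controls and 2 with BMS493, where 9.84% and 12.0% of all genes tested were called lower.

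Junction, adhesion and surface proteins held 7 of 13 genes lower in A/J controls and 8 of 13 lower in A/J with BMS493, with median log2 fold changes of -0.38 and -0.37. Pecam1 encodes CD31, an adhesion molecule of endothelial junctions that platelets and leukocytes also carry. It stood at 238, 232, 242 and 234 CPM in the B6 controls and 197, 185, 183 and 162 CPM in the A/J controls. With BMS493 its values were 214, 278, 229.6 and 216 CPM in B6 and 169, 193, 160.0 and 158 CPM in A/J. The groups did not overlap in either comparison, and Pecam1 was at 77.0% of the B6 level in controls (log2 fold change -0.38, SE 0.08, adjusted p 0.00101) and at 72.6% with BMS493 (log2 fold change -0.46, SE 0.08, adjusted p 9.52e-05). Cdh5 measured 378, 348, 389 and 367 CPM in the B6 controls and 315, 298, 268 and 237 CPM in the A/J controls. In the BMS493 lungs it measured 349, 429, 292 and 352 CPM in B6 and 270.4, 317, 255 and 259 CPM in A/J. Every A/J control was below every B6 control (log2 fold change -0.41, SE 0.10, adjusted p 0.00738), while with BMS493 the groups overlapped because A/J replicate 2 lay above B6 replicate 3 (log2 fold change -0.37, SE 0.10, adjusted p 0.0127).

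Esam, an immunoglobulin-like adhesion molecule of tight junctions, read 84.4, 93.9, 86.9 and 95.5 CPM in the B6 controls and 68.2, 69.4, 71.1 and 54.5 CPM in the A/J controls. With BMS493 it read 80.4, 98.3, 100.2 and 82.7 CPM in B6 and 70.6, 66.3, 66.6 and 62.0 CPM in A/J. No A/J library reached a B6 library, and the difference was nearly the same in both comparisons (log2 fold change -0.45, SE 0.08, adjusted p 0.000264 in controls, log2 fold change -0.45, SE 0.08, adjusted p 0.000270 with BMS493). Cldn5, the main claudin of endothelial tight junctions, was at 95.3, 98.6, 104 and 98.0 CPM in the B6 controls and 68.3, 66.5, 86.5 and 53.6 CPM in the A/J controls. Under BMS493 the levels were 75.6, 88.1, 138 and 76.4 CPM in B6 and 60.5, 45.7, 57.8 and 68.3 CPM in A/J. The groups were apart in both, with B6 BMS493 replicate 3 far above the rest of its group and A/J control replicate 3 above the rest of its own. Cldn5 was called with BMS493 (log2 fold change -0.70, SE 0.19, adjusted p 0.0197) and not in controls (log2 fold change -0.52, SE 0.19, adjusted p 0.0769). Without A/J BMS493 replicate 2 the BMS493 call was lost at an adjusted p of 0.0542, and the controls passed the threshold without A/J control replicate 3 at 0.0391 or without B6 BMS493 replicate 3 at 0.0133.

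Vwf, which megakaryocytes also make, had the lowest fold change of all 41 genes with BMS493. It stood at 37.6, 42.7, 50.7 and 47.3 CPM in the B6 controls and 34.97, 30.3, 27.5 and 22.0 CPM in the A/J controls. The BMS493 libraries were at 40.5, 57.7, 61.7 and 29.9 CPM in B6 and 25.9, 31.2, 22.3 and 25.6 CPM in A/J, where B6 replicates 2 and 3 were high and B6 replicate 4 lay inside the A/J range. Vwf was at 64.5% of the B6 level in controls (log2 fold change -0.63, SE 0.20, adjusted p 0.0470) and at 55.4% with BMS493 (log2 fold change -0.85, SE 0.20, adjusted p 0.00870). The call in controls was lost, with adjusted p from 0.0510 to 0.136, when any of 10 libraries was left out: replicates 2, 3 or 4 of either control group, replicate 1, 3 or 4 of A/J BMS493, or replicate 1 of B6 BMS493. The BMS493 call was kept in all 16 such fits.

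Plvap, which forms the diaphragms of endothelial caveolae and fenestrae, stood at 108, 108, 114 and 106 CPM in the B6 controls and 101, 92.3, 99.4 and 80.2 CPM in the A/J controls. With BMS493 it was at 103, 127, 124 and 95.8 CPM in B6 and 78.1, 79.6, 82.8 and 74.7 CPM in A/J, and the groups were apart in both comparisons. It was called with BMS493 (log2 fold change -0.51, SE 0.08, adjusted p 4.31e-05) but missed the threshold narrowly in controls (log2 fold change -0.23, SE 0.08, adjusted p 0.0535), where it passed without A/J control replicate 1 or 3 or any 1 of the 4 B6 BMS493 libraries, at adjusted p from 0.0331 to 0.0493. Emcn encodes endomucin, a sialomucin of venous and capillary endothelium. It measured 47.4, 43.6, 51.6 and 45.2 CPM in the B6 controls and 37.0, 36.9, 36.8 and 34.5 CPM in the A/J controls. With BMS493 the values were 40.1, 52.3, 32.1 and 36.5 CPM in B6 and 34.6, 37.0, 29.3 and 29.4 CPM in A/J, and A/J replicates 1 and 2 lay above B6 replicate 3. Emcn was lower in A/J in controls (log2 fold change -0.37, SE 0.11, adjusted p 0.0201) and at the threshold with BMS493 (log2 fold change -0.31, SE 0.11, adjusted p 0.0486). The control call was lost without A/J control replicate 4, B6 control replicate 1 or B6 control replicate 3, at 0.0525 to 0.0724, and the BMS493 call held only without B6 BMS493 replicate 3, B6 BMS493 replicate 4 or A/J BMS493 replicate 2, the other 13 fits giving 0.0520 to 0.296. Without B6 BMS493 replicate 2 the BMS493 fold change was -0.16.

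The sialomucin Cd34 was called in both comparisons, at a log2 fold change of -0.43, adjusted p 0.00253 in controls and -0.44, adjusted p 0.00187 with BMS493. Icam2, a ligand of leukocyte integrins, was called in controls (-0.41, adjusted p 0.00677) and not with BMS493 (-0.21, adjusted p 0.180), where it passed without A/J replicate 2 at 0.0281 and its fold change ran from -0.32 to -0.12 when 1 library was left out. Among the other surface genes, Cd93, its matrix ligand Mmrn2 and Ecscr had fold changes of -0.27, -0.15 and -0.18 in controls and were not called. Cd93 had adjusted p of 0.0760 and 0.0942 in controls and with BMS493. Cd93 passed with BMS493 without A/J BMS493 replicate 2 at 0.00646, and in controls without A/J BMS493 replicate 2, A/J control replicate 1 or B6 BMS493 replicate 2 at 0.0272 to 0.0494. With the library set as a covariate it passed at 0.0161 in controls and 0.0276 with BMS493, and without the filter on low counts at 0.000670 and 0.00321. Mmrn2 passed with BMS493 without B6 BMS493 replicate 4 at 0.0257, and its BMS493 fold change ran from -0.35 to -0.092 when 1 library was left out. Clec14a, a C-type lectin that shares the ligand Mmrn2, measured 58.5, 52.2, 63.3 and 57.3 CPM in the B6 controls and 60.9, 64.8, 57.4 and 46.8 CPM in the A/J controls. Under BMS493 it measured 54.8, 87.8, 68.7 and 50.5 CPM in B6 and 65.4, 78.5, 65.6 and 60.9 CPM in A/J. The strains overlapped in both, with fold changes of -0.01 (95% interval -0.32 to 0.31) in controls and 0.04 (-0.26 to 0.35) with BMS493.

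**Figure D2:**
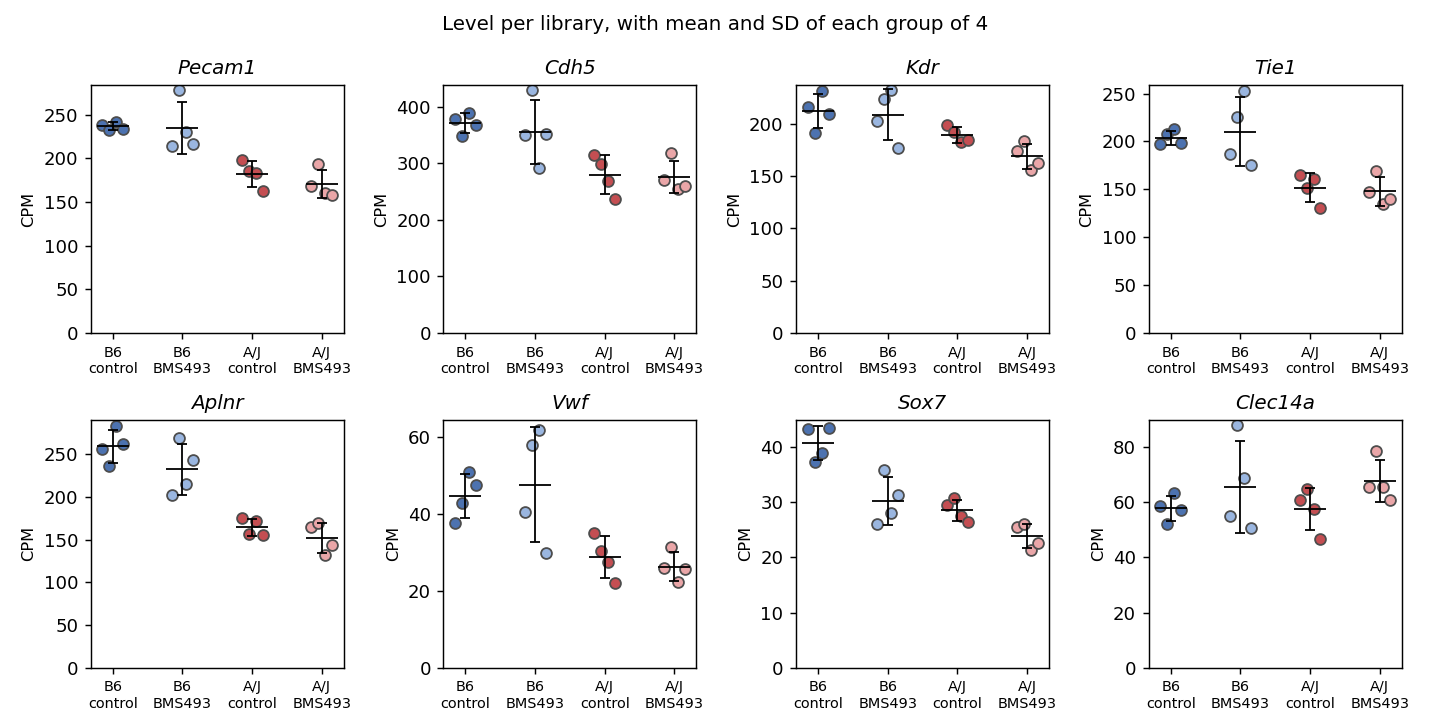
CPM of 8 of the 41 genes in each library (points) with the mean and SD of each group of 4 (bars), on axes that start at 0. Pecam1, Tie1 and Aplnr show all 8 A/J libraries below all 8 B6 libraries, Sox7 also shows lower BMS493 than control libraries within B6 and within A/J, and Clec14a shows no gap between the strains.

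Receptors and their partners were called lower for 8 of 13 genes in each comparison, with median log2 fold changes of -0.36 in controls and -0.38 with BMS493. Aplnr, the apelin receptor, which marks venous endothelium and vessel sprouts, had the lowest fold change of the list in controls. Its levels were 256, 236, 283 and 262 CPM in the B6 controls and 175, 157, 172 and 155 CPM in the A/J controls. With BMS493 they were 202, 269, 215 and 243 CPM in B6 and 165, 169, 132 and 144 CPM in A/J. All 8 A/J libraries lay below all 8 B6 libraries, at 63.5% of the B6 level in controls (log2 fold change -0.66, SE 0.09, adjusted p 5.12e-06) and 65.6% with BMS493 (log2 fold change -0.61, SE 0.09, adjusted p 1.40e-05). Its ligand Apln, which tip cells secrete, stood in contrast at 54.2, 44.3, 44.2 and 50.2 CPM in the B6 controls and 44.6, 50.6, 53.2 and 38.3 CPM in the A/J controls. The Apln groups overlapped, and its fold changes were -0.04 (95% interval -0.29 to 0.20) in controls and -0.10 (-0.35 to 0.15) with BMS493.

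Among the VEGF receptors, Kdr (VEGFR2), the main signalling receptor, measured 216, 192, 231 and 209.9 CPM in the B6 controls and 199, 193, 183 and 184 CPM in the A/J controls. With BMS493 it measured 203, 224, 232 and 177 CPM in B6 and 174, 184, 156 and 163 CPM in A/J. A/J libraries overlapped with B6 replicate 2 in controls and with B6 replicate 4 under BMS493, and Kdr was called with BMS493 (log2 fold change -0.30, SE 0.07, adjusted p 0.00410) and not in controls (log2 fold change -0.16, SE 0.07, adjusted p 0.143). Flt1 (VEGFR1), which traps VEGF, was not called, with fold changes of 0.02 (95% interval -0.16 to 0.21) in controls and -0.15 (-0.33 to 0.04) with BMS493. Eng, a co-receptor for TGF-beta family ligands, was at -0.20 in controls and -0.20 with BMS493 and missed the threshold in both, with adjusted p of 0.121 and 0.122. It passed without B6 BMS493 replicate 3, at 0.0383 in controls and 0.00834 with BMS493, and without A/J BMS493 replicate 2 at 0.0313 with BMS493.

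The angiopoietin receptor Tek (Tie2) and its partner Tie1 were lower in A/J in both comparisons. Tie1 stood at 197, 208, 212 and 199 CPM in the B6 controls and 164, 152, 161 and 131 CPM in the A/J controls. Under BMS493 it stood at 187, 226, 253 and 175 CPM in B6 and 147, 169.6, 135 and 140.4 CPM in A/J, and all 8 A/J libraries lay below all 8 B6 libraries (-0.42, adjusted p 0.00394 in controls, -0.51, adjusted p 0.000764 with BMS493). Tek was at 89.4, 87.7, 92.1 and 92.1 CPM in the B6 controls and 69.2, 71.6, 69.0 and 67.8 CPM in the A/J controls. With BMS493 it was at 87.5, 111, 108 and 84.8 CPM in B6 and 70.4, 84.2, 62.7 and 67.2 CPM in A/J, again without overlap (-0.38, adjusted p 0.00220 and -0.46, adjusted p 0.000283). Robo4, a guidance receptor that stabilises vessels, read 54.8, 57.4, 52.3 and 60.5 CPM in the B6 controls and 44.4, 48.8, 45.2 and 35.9 CPM in the A/J controls. Its BMS493 libraries read 47.9, 53.7, 57.9 and 57.0 CPM in B6 and 35.2, 33.7, 38.8 and 31.2 CPM in A/J. The groups were apart in both, and the level was 77.7% of B6 in controls (log2 fold change -0.36, SE 0.09, adjusted p 0.00413) and 64.2% with BMS493 (log2 fold change -0.64, SE 0.09, adjusted p 6.97e-06).

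The promoters of Tie1, Robo4, Tek and Clec14a are shown because the first 3 belong to the receptors that were lower in A/J together while the Clec14a means lay close together. Tie1, Tek and Clec14a were chosen for printing after their values were seen. Each line gives the 250 bases before the transcription start, 5′ to 3′ on the strand of the gene, from RefSeq on GRCm38.p6, the B6 reference and not the A/J sequence. Capitals mark GGAAG on either strand (GGAAG or its reverse complement CTTCC), the core letters that ETS factors such as Erg and Fli1 are known to bind. The windows are chr4:118489850-118490099, minus strand for Tie1, chr9:37401722-37401971, plus strand for Robo4, chr4:94739039-94739288, plus strand for Tek and chr12:58269259-58269508, minus strand for Clec14a.
Tie1: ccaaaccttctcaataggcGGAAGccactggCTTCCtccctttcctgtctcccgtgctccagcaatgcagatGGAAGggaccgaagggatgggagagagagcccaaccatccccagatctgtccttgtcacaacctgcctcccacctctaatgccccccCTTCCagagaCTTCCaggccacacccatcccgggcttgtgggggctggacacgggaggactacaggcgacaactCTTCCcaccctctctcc
Robo4: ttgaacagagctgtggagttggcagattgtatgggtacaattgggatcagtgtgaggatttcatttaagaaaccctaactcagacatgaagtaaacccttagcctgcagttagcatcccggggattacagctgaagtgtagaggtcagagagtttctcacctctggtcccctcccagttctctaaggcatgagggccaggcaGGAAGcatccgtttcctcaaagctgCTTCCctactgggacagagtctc
Tek: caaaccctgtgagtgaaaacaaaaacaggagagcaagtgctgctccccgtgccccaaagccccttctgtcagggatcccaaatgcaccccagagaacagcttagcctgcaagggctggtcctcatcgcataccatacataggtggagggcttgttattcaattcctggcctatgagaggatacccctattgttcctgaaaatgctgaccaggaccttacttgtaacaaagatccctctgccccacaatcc
Clec14a: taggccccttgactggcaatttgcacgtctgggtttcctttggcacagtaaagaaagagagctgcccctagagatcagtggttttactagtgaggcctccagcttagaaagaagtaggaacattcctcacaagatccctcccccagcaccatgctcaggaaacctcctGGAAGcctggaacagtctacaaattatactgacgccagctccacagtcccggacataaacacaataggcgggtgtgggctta
Tie1 holds 6 such matches, Robo4 2, Clec14a 1 and Tek 0. RefSeq promoters were matched for 22 of the 41 genes. Among these, 18 (81.8%) hold GGAAG on either strand, against 66.9% of 27025 genes with windows of the same length. The longer AGGAAG, which contains GGAAG, was in 12 of 22 (54.5%) against 32.3%, and CGGAAG, which also contains it, in 1 of 22 (4.55%, Tie1) against 15.3%. The SOX letters AACAAT were in 3 of 22 (13.6%, Emcn, Erg and Tek) against 10.9%, and the nuclear receptor letters AGGTCA in 4 of 22 (18.2%, Egfl7, Emcn, Erg and Robo4) against 15.8%, all on both strands. The motifs were chosen with the expression results known, and a match describes letters in a window, not binding.

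Further receptors and partners were called lower in A/J. Ramp2, which joins Calcrl to form the adrenomedullin receptor, was at 71.5, 71.8, 69.4 and 74.2 CPM in the B6 controls and 55.1, 53.3, 53.5 and 48.7 CPM in the A/J controls. With BMS493 it was at 63.1, 77.8, 67.5 and 66.0 CPM in B6 and 57.4, 61.1, 49.3 and 44.9 CPM in A/J. No A/J library reached a B6 library (log2 fold change -0.44, SE 0.08, adjusted p 0.000320 in controls, log2 fold change -0.37, SE 0.08, adjusted p 0.00201 with BMS493). Exons of Vps25 on the same strand cover 33.4% of the Ramp2 exon bases in GENCODE M21, so part of its count is uncertain. S1pr1, the sphingosine phosphate receptor that stabilises junctions, was called in both (-0.41, adjusted p 0.00565 in controls, -0.39, adjusted p 0.00732 with BMS493), and its BMS493 call was lost without B6 BMS493 replicate 2 at 0.0611, where the fold change was -0.24. Egfl7, a secreted factor of endothelial cells, stood at 66.7, 62.3, 58.1 and 69.0 CPM in the B6 controls and 53.9, 45.4, 61.1 and 51.3 CPM in the A/J controls. Under BMS493 it stood at 57.4, 63.0, 77.3 and 61.3 CPM in B6 and 53.7, 49.9, 47.5 and 47.1 CPM in A/J. A/J control replicate 3 lay above B6 control replicate 3, while with BMS493 the groups were apart (log2 fold change -0.27, SE 0.09, adjusted p 0.0369 in controls, log2 fold change -0.38, SE 0.09, adjusted p 0.00324 with BMS493). Other genes cover 11.2% of its exon bases, among them Agpat2 on the opposite strand, and its control call was lost without replicate 1, 2 or 4 of either control group, at adjusted p from 0.0589 to 0.148.

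Nos3, the endothelial nitric oxide synthase, measured 15.98, 13.3, 13.8 and 13.2 CPM in the B6 controls and 9.26, 10.3, 10.3 and 8.17 CPM in the A/J controls. With BMS493 it measured 11.1, 12.8, 16.4 and 11.7 CPM in B6 and 12.5, 12.5, 11.6 and 9.07 CPM in A/J. The controls were apart and the BMS493 groups overlapped, and Nos3 was called in controls (log2 fold change -0.56, SE 0.13, adjusted p 0.00364) and not with BMS493 (log2 fold change -0.18, SE 0.13, adjusted p 0.372). The difference between the strain effects in control and BMS493 lungs was 0.38 on the log2 scale and not called (adjusted p 0.999). Atg9b and Gm15587 on the opposite strand cover 32.3% of the Nos3 exon bases, and the counts do not separate strands. Rasip1, a Rap1 effector needed for vessel lumens, was not called (-0.34, adjusted p 0.223 in controls, -0.51, adjusted p 0.0570 with BMS493), and other genes cover 42.9% of its exon bases. Its BMS493 fold change was -0.27 without B6 BMS493 replicate 3 and -0.60 without B6 BMS493 replicate 4, with adjusted p over the 16 fits of 0.0258 to 0.140, and its control fold change was -0.21 without A/J control replicate 4, with adjusted p of 0.0271 to 0.469. It passed in controls without B6 BMS493 replicate 3 at 0.0271, and with BMS493 without A/J control replicate 4, B6 BMS493 replicate 1 or B6 BMS493 replicate 4, at 0.0258 to 0.0293. Both stranded columns called it lower in both comparisons, the first at 0.0372 in controls and 0.0201 with BMS493 and the second at 0.00948 and 0.00860, with BMS493 fold changes of -0.37 in each. With BMS493 it also passed with DESeq2 at 0.0444 and with a filter on mean CPM at 0.0465. The first stranded column held 51.0% to 52.0% of the counts of both stranded columns in every library. Neither column therefore separates strands, and each holds fewer counts than the column used.

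Transcription factors were called lower for 4 of 7 genes in controls and 3 of 7 with BMS493, with median log2 fold changes of -0.31 and -0.34. Sox7, a SOXF factor of early endothelium, measured 43.3, 37.3, 38.8 and 43.4 CPM in the B6 controls and 29.4, 30.7, 27.5 and 26.4 CPM in the A/J controls. With BMS493 it measured 26.0, 35.9, 28.0 and 31.3 CPM in B6 and 25.4, 26.0, 21.4 and 22.7 CPM in A/J. The controls were apart (log2 fold change -0.51, SE 0.09, adjusted p 0.000333), and with BMS493 the groups overlapped because A/J replicate 2 lay above B6 replicate 1 by less than the digits shown (log2 fold change -0.34, SE 0.10, adjusted p 0.0118). That second call was lost without A/J BMS493 replicate 3, at 0.0550, or without B6 BMS493 replicate 2, at 0.0761. Sox18, another SOXF factor, was at 50.1, 42.4, 47.5 and 45.6 CPM in the B6 controls and 42.4, 38.4, 37.6 and 31.5 CPM in the A/J controls. With BMS493 its levels were 37.0, 51.1, 50.5 and 46.6 CPM in B6 and 35.02, 37.0, 36.2 and 34.8 CPM in A/J. A/J replicate 1 of the controls lay at the level of B6 replicate 2, and the groups overlapped in both comparisons (log2 fold change -0.31, SE 0.09, adjusted p 0.0242 in controls, log2 fold change -0.37, SE 0.09, adjusted p 0.00556 with BMS493). The control call was lost without A/J control replicate 4, B6 control replicate 1 or B6 control replicate 3, at 0.0590 to 0.109.

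Erg, the ETS factor that maintains endothelial identity, stood at 44.5, 45.5, 47.1 and 45.0 CPM in the B6 controls and 37.9, 38.7, 37.3 and 33.9 CPM in the A/J controls. Under BMS493 it stood at 45.9, 49.9, 39.9 and 43.7 CPM in B6 and 34.7, 35.4, 32.1 and 31.7 CPM in A/J. All 8 A/J libraries lay below all 8 B6 libraries, at 81.2% of the B6 level in controls (log2 fold change -0.30, SE 0.07, adjusted p 0.00499) and 74.5% with BMS493 (log2 fold change -0.42, SE 0.07, adjusted p 0.000142). Fli1, its close relative, was at 41.6, 40.3, 42.9 and 41.6 CPM in the B6 controls and 34.8, 36.8, 31.5 and 30.8 CPM in the A/J controls. With BMS493 it was at 36.9, 40.9, 27.2 and 38.2 CPM in B6 and 34.6, 34.8, 28.7 and 30.7 CPM in A/J, where B6 replicate 3 was the lowest of all 16 libraries. Fli1 was called in controls (log2 fold change -0.31, SE 0.10, adjusted p 0.0275) and not with BMS493 (log2 fold change -0.16, SE 0.10, adjusted p 0.290), where it passed without B6 BMS493 replicate 3 at 0.0187. The Fli1 fold change with BMS493 ran from -0.27 to -0.085 when 1 library was left out. Its control call was lost without A/J control replicate 3 or 4 or B6 control replicate 1, 3 or 4, at 0.0574 to 0.0905. Sox17, the arterial SOXF factor, had fold changes of -0.51 and -0.59 and was not called (adjusted p 0.128 and 0.0658). It passed without B6 BMS493 replicate 4 in both, at 0.0444 in controls and as low as 0.00568 with BMS493, and with BMS493 also without B6 BMS493 replicate 1 or A/J BMS493 replicate 2. Tal1 and its bridging partner Lmo2 were at -0.23 and -0.16 in controls and at -0.16 and -0.13 with BMS493, and were not called. When 1 library was left out, the BMS493 values ran from -0.21 to -0.068 for Tal1 and from -0.20 to -0.025 for Lmo2.

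Genes of the Notch pathway and arteriovenous identity gave 0 of 8 calls in controls and 2 of 8 with BMS493, with median log2 fold changes of -0.16 and -0.23. The shares of all genes tested that were called lower were 9.84% and 12.0%. By unadjusted p under 0.05, 2 of the 8 passed in controls, where 29.0% of all genes tested did, and 5 of the 8 with BMS493, where 31.4% did. The Notch ligand Dll4 of arterial and tip cells and the Notch target Hey1 were the genes called with BMS493 (-0.49, adjusted p 0.0424 and -0.48, adjusted p 0.00936). Dll4 lost its call in 11 of 16 fits that left out 1 library, at 0.0508 to 0.175, and kept it without A/J control replicate 2, A/J BMS493 replicate 4, B6 control replicate 4, B6 BMS493 replicate 1 or B6 BMS493 replicate 4. Hey1 also passed in controls without A/J control replicate 4, at 0.0452. The receptors Notch1 and Notch4 were at -0.11 and -0.17 in controls, and at -0.18 and -0.27 with BMS493. With BMS493 Notch1 passed without A/J BMS493 replicate 2 at 0.0480 and Notch4 without B6 BMS493 replicate 4 at 0.0150. Over the 16 fits the BMS493 fold change ran from -0.38 to -0.12 for Notch4 and from -0.23 to -0.12 for Notch1. In controls Notch1 ran from -0.15 to -0.049, and with BMS493 it also passed in the first stranded column at 0.0492. Efnb2, the ephrin of arteries, was at -0.15 and -0.17, and it passed with BMS493 without A/J control replicate 4 or B6 BMS493 replicate 1 at 0.0280 to 0.0429. Ephb4, the receptor for it on veins, was at -0.06 (95% interval -0.19 to 0.07) and -0.07 (-0.20 to 0.06). Of the arterial connexins, Gja5 (connexin 40) gave -0.0018 (-0.26 to 0.25) in controls and 0.12 (-0.14 to 0.37) with BMS493. Gja4 (connexin 37) gave -0.46 and -0.35 and was not called, but passed without B6 BMS493 replicate 4 at 0.0109 in controls and 0.00249 with BMS493, the library in which it stood at 7.52 CPM against 15.9 to 25.0 in the rest of its group. Its BMS493 fold change was -0.59 without that library and -0.11 without B6 BMS493 replicate 3, with adjusted p of up to 0.768 over the 16 fits.

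Leaving out each of the 16 libraries in turn, 14 of the 19 calls in controls and 16 of the 21 with BMS493 were kept in every fit. The 10 genes kept in every fit of both comparisons were Aplnr, Cd34, Cdh5, Erg, Esam, Pecam1, Ramp2, Robo4, Tek and Tie1. Of these 10, Erg and Robo4 lost the control call when 1 of the stranded columns was used, at adjusted p of 0.136 with the first and 0.0559 with the second. When only the 8 control libraries were fitted, 28 genes were called lower in controls, the 19 and 9 more, which were Sox17 at 4.70e-05, Gja4 at 0.00224, Cldn5 at 0.00431, Cd93 at 0.0116, Plvap at 0.0143, Eng at 0.0217, Dll4 at 0.0362, Rasip1 at 0.0364 and Kdr at 0.0487. Gja4 and Dll4 are of the Notch and arteriovenous group, which then held 2 of 8 calls. When only the 8 BMS493 libraries were fitted, 17 genes were called, the 21 without Cldn5 at 0.0544, Dll4 at 0.131, Emcn at 0.151 and Sox7 at 0.0521. Over all genes tested, these fits called 2117 of 16385 lower in controls and 1423 of 16363 lower with BMS493. The fit of all 16 libraries called 1700 and 2077 of 17276 lower. Within replicates 1 and 2, which have the lower library numbers, the median log2 difference of the 41 genes between the strains was -0.24 in controls and -0.25 with BMS493. Within replicates 3 and 4, which have the higher ones, it was -0.43 and -0.37. The library numbers are not labelled as batches.

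The libraries of a group shifted together over many of the 41 genes. The median deviation of the 41 genes from their means over all libraries, on the log2 scale, lay between 0.15 and 0.22 for the B6 controls and between -0.0094 and 0.29 for B6 with BMS493. For A/J it lay between -0.25 and -0.036 among controls and between -0.27 and -0.053 under BMS493. The lowest B6 library, BMS493 replicate 4, was above the highest A/J library, control replicate 1. A/J control replicate 4 was the lowest of its group for 32 of 41 genes. In that library 8.68% of fragments fell in no gene, against 4.89% to 6.95% in the other 15, and its assigned share of 71.7% was the lowest of the 16. It was also the lowest of its group in the median deviation of 8 of the 12 other gene lists. These were the heart (-1.19), pericyte (-0.38), white blood cell (-0.33), epithelial (-0.30), further endothelial (-0.30), vascular partner (-0.20), mesenchymal (-0.13) and lymphatic (-0.044) lists. The part of these values in its levels of the 41 genes was not tested. Among A/J BMS493 libraries, replicate 2 was the highest for 28 genes, and among B6 BMS493 libraries replicate 2 was the highest for 22 and replicate 3 for 18. B6 BMS493 replicate 2 was also the highest of its group for the epithelial (0.51), pericyte (0.39), further endothelial (0.38) and vascular partner (0.17) lists, and replicate 3 for the megakaryocyte (1.38), heart (0.93) and erythroid (0.0068) lists. The surfactant gene Sftpc of the epithelial list stood at 179, 867, 589.6 and 288 CPM in the B6 BMS493 libraries, highest in replicate 2. A/J BMS493 replicate 2 was the highest of its group for 6 of the 12 lists, the erythroid (0.73), vascular partner (0.06), pericyte (-0.027), further endothelial (-0.027), epithelial (-0.063) and megakaryocyte (-0.34) lists. The part of these values in the endothelial levels was not tested.

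**Figure D3:**
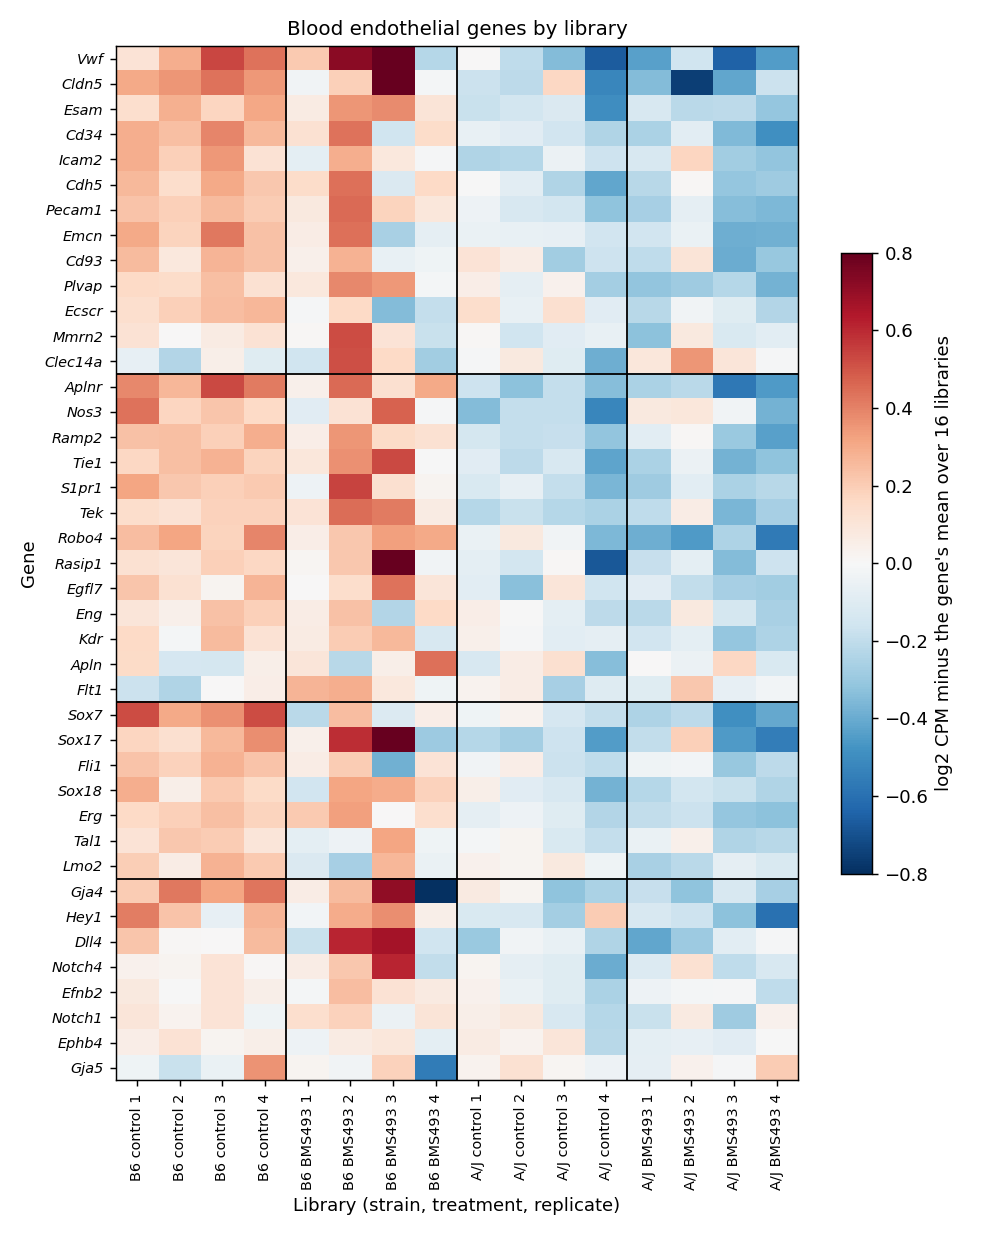
Log2 CPM of each of the 41 genes (rows, grouped by role) minus its mean over the 16 libraries (columns, grouped by strain and treatment), from blue (lower) to red (higher). B6 columns are mostly red and A/J columns mostly blue, A/J control replicate 4 is the lowest of its group for 32 of 41 genes, and the B6 BMS493 columns run from a median of -0.0094 to 0.29.

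Other endothelial genes were lower in A/J in the same comparisons. Of 51 further endothelial genes tested, 26 were lower and 0 higher in A/J controls, where 9.84% of all genes tested were called lower. With BMS493, 31 were lower and 1 higher, where 12.0% of all genes tested were called lower. The medians of the 51 were -0.34 and -0.36, and some of the 51 may also be made by other lung cells. The lowest in controls were Nostrin, an adaptor of endothelial nitric oxide synthase (-0.95, adjusted p 0.000145), Palmd (-0.91, adjusted p 0.00229) and the protocadherin Pcdh17 (-0.82, adjusted p 5.65e-05), and Nostrin (-1.37, adjusted p 8.61e-07) and Palmd (-1.14, adjusted p 0.000194) were again lowest with BMS493. Ednrb, an endothelin receptor, was the gene called higher with BMS493 (0.32, adjusted p 0.0181). Of 38 ligands, receptors and enzymes that signal with the listed genes, 15 were lower and 3 higher in controls and 11 lower and 3 higher with BMS493, with medians of -0.17 and -0.08. Rbpj, the DNA-binding partner of Notch receptors, was the lowest of these in both (-1.30, adjusted p 3.99e-14 in controls, -1.32, adjusted p 2.98e-14 with BMS493), at 138, 146, 151 and 145 CPM in B6 controls and 59.3, 59.8, 54.0 and 62.3 CPM in A/J controls. Sphk1, which makes the S1pr1 ligand, followed (-1.06, adjusted p 0.000764 and -1.27, adjusted p 9.10e-05), then Vegfd, a lymphatic growth factor (-0.88, adjusted p 1.48e-06 and -0.80, adjusted p 5.11e-06). The VEGF and semaphorin co-receptor Nrp2 was higher in both (0.40, adjusted p 0.000115 and 0.31, adjusted p 0.00167), and Adm, the ligand of the Ramp2 and Calcrl receptor, was higher in controls (1.35, adjusted p 0.0196).

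Marker lists of the other cells of the lung also held genes that differed between the strains, and their part in the endothelial differences was not tested. Among all genes tested, 9.84% were called lower and 7.04% higher in controls, and 12.0% and 7.93% with BMS493. Pericyte and vascular smooth muscle genes were lower for 5 and higher for 1 of 12 in each comparison, with medians of -0.29 and -0.35, and their summed level was 921 to 1002 CPM for B6 against 785 to 994 CPM for A/J among controls, and 905 to 1048 CPM against 838 to 952 CPM under BMS493. Rgs5, a pericyte regulator of G protein signalling, was the gene higher (0.79, adjusted p 2.80e-06 and 0.94, adjusted p 1.87e-07). Lung epithelial genes were lower for 4 of 12 in controls and 6 of 12 with BMS493, with 0 higher and medians of -0.24 and -0.32, and their summed level was 1767 to 2001 CPM in B6 controls and 1402 to 1660 CPM in A/J controls, and 1818 to 2924 CPM and 1429 to 1665 CPM with BMS493. Mesenchymal genes were lower for 5 and higher for 0 of 12 in controls, and lower for 4 and higher for 1 with BMS493, with medians of -0.22 and -0.12. They summed to 9318 to 9668 CPM for B6 against 5795 to 7452 CPM for A/J among controls, and to 8149 to 14956 CPM against 7140.3 to 7725 CPM under BMS493. The collagen genes Col1a1, Col1a2 and Col3a1 held 80.1% to 92.8% of this sum in the 16 libraries. The other 9 genes summed to 1215 to 1261 CPM (B6) and 1155 to 1277 CPM (A/J) among controls, which overlap, and to 1076 to 1228 CPM and 1175 to 1256 CPM under BMS493. Beside Col1a1 and Col3a1, the genes lower in controls were the mesenchymal factors Meox2 (-0.48, adjusted p 9.71e-06) and Tcf21 (-0.35, adjusted p 0.00227) and the proteoglycan gene Dcn (-0.62, adjusted p 9.51e-06). With BMS493 they were Tcf21 (-0.42, adjusted p 0.000260) and Meox2 (-0.32, adjusted p 0.00121). Tbx4, Tbx5, Foxf1, Wnt2, Fgf10, Col1a2 and Pdgfra were not called in controls, and Pdgfra was higher with BMS493 (0.16, adjusted p 0.0479). Lymphatic endothelial genes were lower for 1 and higher for 2 of 8 in controls, and lower for 2 and higher for 2 with BMS493. Of these, Prox1, their defining factor, was at 5.75 to 10.7 CPM over the 16 libraries.

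Genes of megakaryocytes and platelets, cells that also hold Vwf, were lower for 5 of 6 in controls and 4 of 6 with BMS493, with 0 higher. Their summed level was 20.4 to 22.4 CPM in B6 controls and 10.7 to 13.4 CPM in A/J controls, and 14.2 to 32.7 CPM and 11.6 to 13.3 CPM with BMS493. Their part in the Vwf values was not tested. Itga2b (CD41), a platelet integrin, stood at 9.44, 9.13, 9.30 and 12.7 CPM in the B6 controls and 4.15, 4.42, 5.65 and 3.91 CPM in the A/J controls (-1.15, adjusted p 0.000925), whereas Pf4, a platelet chemokine, ranged over 4.13 to 8.28 CPM in all 16 libraries and was not called. White blood cell genes were lower for 3 and higher for 1 of 10 in controls, and lower for 3 and higher for 3 with BMS493. Erythroid genes were higher for 2 of 11 in controls and 1 of 11 with BMS493, with 0 lower. Mesothelial genes were lower for 1 and higher for 1 of 7 in controls, and lower for 3 and higher for 2 with BMS493. Heart muscle and endocardial genes were lower for 1 and higher for 1 of 6 in each, and Myh6, of heart muscle, ranged over 0.113 to 19.2 CPM. Neural genes were lower for 2 and higher for 2 of 8 in controls, and lower for 2 and higher for 3 with BMS493. The shares over all genes tested were 9.84% lower and 7.04% higher in controls, and 12.0% and 7.93% with BMS493.

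**Figure D4:**
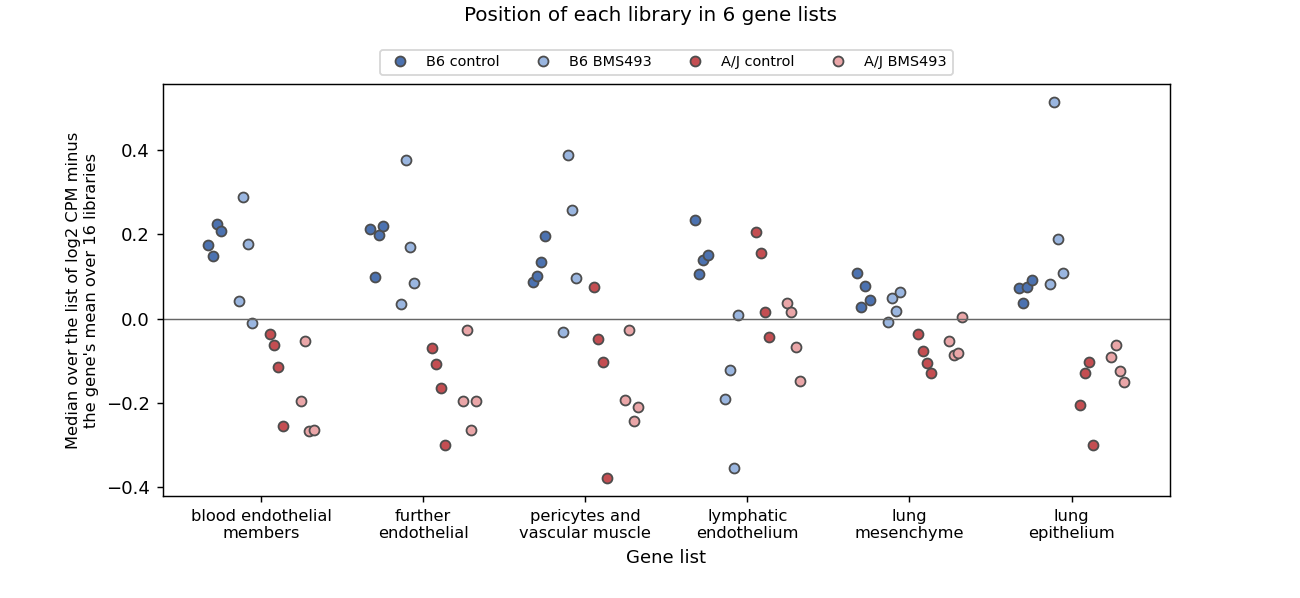
Position of each library (points, coloured by group) in 6 gene lists, as the median over the list of log2 CPM minus the gene's mean over the 16 libraries. For the 41 blood endothelial genes the B6 libraries sit from -0.0094 to 0.29 and the A/J libraries from -0.27 to -0.036. The further endothelial and lung epithelial lists also separate the strains, and in the pericyte, mesenchymal and lymphatic lists the strains overlap.

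Treatment of the dams with BMS493 left few of the 41 genes past the threshold. In B6, 1 gene was lower and 0 were higher, against 0.347% of all genes tested called lower. That share is 60 genes, and it ran from 26 genes without B6 control replicate 1 to 132 without B6 BMS493 replicate 1. In A/J, 0 genes were called, against 0.486% of all genes tested called in either direction. There 5 of 41 passed an unadjusted p under 0.05, as did 6.23% of all genes tested, and DESeq2 called 1 of the 41, Robo4. Averaged over both strains, 1 gene was lower and 0 were higher, against 1.09% called lower. The median log2 fold changes of the 41 genes were -0.04 in B6, -0.06 in A/J and -0.05 averaged. Leaving out 1 library moved the B6 median from -0.074 (without B6 BMS493 replicate 2) to 0.021 (without B6 BMS493 replicate 1), so its sign turned. The A/J median moved from -0.11 (without A/J control replicate 4) to -0.021 (without A/J control replicate 1), and the average from -0.076 to -0.034 (without B6 BMS493 replicate 2 and 1). Single genes spanned -0.42 to 0.25 (B6) and -0.33 to 0.26 (A/J). The gene called was Sox7 in both cases. The treatment comparisons use the same libraries as the strain comparisons, so the values of Sox7 in both kinds of comparison are not independent.

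Sox7 went from 43.3, 37.3, 38.8 and 43.4 CPM in B6 controls to 26.0, 35.9, 28.0 and 31.3 CPM in B6 with BMS493. In A/J it went from 29.4, 30.7, 27.5 and 26.4 CPM to 25.4, 26.0, 21.4 and 22.7 CPM. The control and BMS493 libraries did not overlap in either strain. Sox7 fell to 74.6% of control in B6 (log2 fold change -0.42, SE 0.09, adjusted p 0.0410) and stood at 83.7% in A/J, where it was not called (log2 fold change -0.26, SE 0.10, adjusted p 0.512). Averaged over both strains the fold change was -0.34 (SE 0.07, adjusted p 0.00594), and the difference between the strains' effects was 0.17 (adjusted p 0.999). Leaving out 1 library ended the B6 call in 11 of 16 fits, at 0.0529 to 0.168, and the call was kept without B6 BMS493 replicate 2, A/J BMS493 replicate 2 or 3, or A/J control replicate 3 or 4. It was also lost when only the 8 B6 libraries were fitted, at 0.183. The averaged call was kept in all 16 fits that left out 1 library.

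The defining markers showed no called effect of BMS493. Pecam1 was at -0.01 (95% interval -0.17 to 0.15) in B6 and -0.10 (-0.26 to 0.06) in A/J. Cdh5 was at -0.06 (-0.27 to 0.15) in B6 and -0.02 (-0.23 to 0.19) in A/J. For Kdr the values were -0.02 (-0.17 to 0.13) in B6 and -0.17 (-0.32 to -0.01) in A/J. Their libraries overlapped between control and BMS493 in both strains. Signs of the Pecam1, Cdh5 and Kdr values in B6 and of Cdh5 in A/J turned when single libraries were left out.

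After Sox7, the gene with the smallest unadjusted p in B6 was Ecscr, a surface protein of migrating endothelium. It stood at 21.4, 22.3, 23.2 and 23.5 CPM in B6 controls and 19.4, 21.8, 15.4 and 17.1 CPM with BMS493, where replicate 2 overlapped with the controls (log2 fold change -0.29, SE 0.10, adjusted p 0.315). In A/J the values were 21.5, 18.8, 21.4 and 18.4 CPM and 16.7, 19.2, 18.3 and 16.6 CPM (log2 fold change -0.18, SE 0.10, adjusted p 0.902). In A/J the smallest p belonged to Robo4 and Plvap. Robo4 was at 44.4, 48.8, 45.2 and 35.9 CPM in A/J controls and 35.2, 33.7, 38.8 and 31.2 CPM with BMS493, where replicate 3 overlapped with control replicate 4 (log2 fold change -0.33, SE 0.09, adjusted p 0.128). It passed without A/J control replicate 4 at 0.0153, without the filter on low counts at 0.0189, with the second strand column at 0.0157 and with DESeq2 at 0.0437. Plvap was at 101, 92.3, 99.4 and 80.2 CPM and 78.1, 79.6, 82.8 and 74.7 CPM in A/J (log2 fold change -0.24, SE 0.08, adjusted p 0.337), with control replicate 4 inside the BMS493 range. In B6 the same genes were at -0.06 (95% interval -0.24 to 0.12) for Robo4 and 0.04 (-0.12 to 0.21) for Plvap.

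Averaged over both strains, the smallest p after Sox7 was that of Lmo2, the bridging protein of the Tal1 complex. It measured 46.7, 42.4, 49.3 and 46.9 CPM in B6 controls and 37.6, 33.7, 48.9 and 39.1 CPM in B6 with BMS493, where replicate 3 stood above the rest. In A/J it measured 41.6, 41.2, 42.9 and 39.7 CPM in controls and 34.0, 35.1, 38.6 and 37.4 CPM with BMS493, without overlap. Lmo2 was not called (log2 fold change -0.21, SE 0.06, adjusted p 0.111), but passed without B6 BMS493 replicate 3, at 0.00331 averaged over both strains and 0.0356 in B6, and without the filter on low counts at 0.0452. Emcn and Ecscr passed in the average without B6 BMS493 replicate 2, at 0.0286 and 0.0326, and Robo4 without A/J control replicate 4, at 0.0322. By unadjusted p under 0.05, 5 of the 41 genes passed in B6, where 9.11% of all genes tested did, and 8 in the average, where 10.8% did.

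Whether BMS493 acted differently in the strains was tested as an interaction. No gene of the 41 was called, against 0.00579% of all genes tested, which is 1 gene, and 2 of the 41 passed an unadjusted p under 0.05, as did 3.68% of all genes tested. These 2 were Plvap (-0.28, adjusted p 0.999) and Robo4 (-0.27, adjusted p 0.999), named after their values were seen. DESeq2 called 0. The median interaction of the 41 genes was -0.02 on the log2 scale, and single values ranged from -0.28 to 0.38. Its sign turned when 1 library was left out, from -0.076 without A/J control replicate 4 to 0.014 without A/J control replicate 1.

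**Figure D5:**
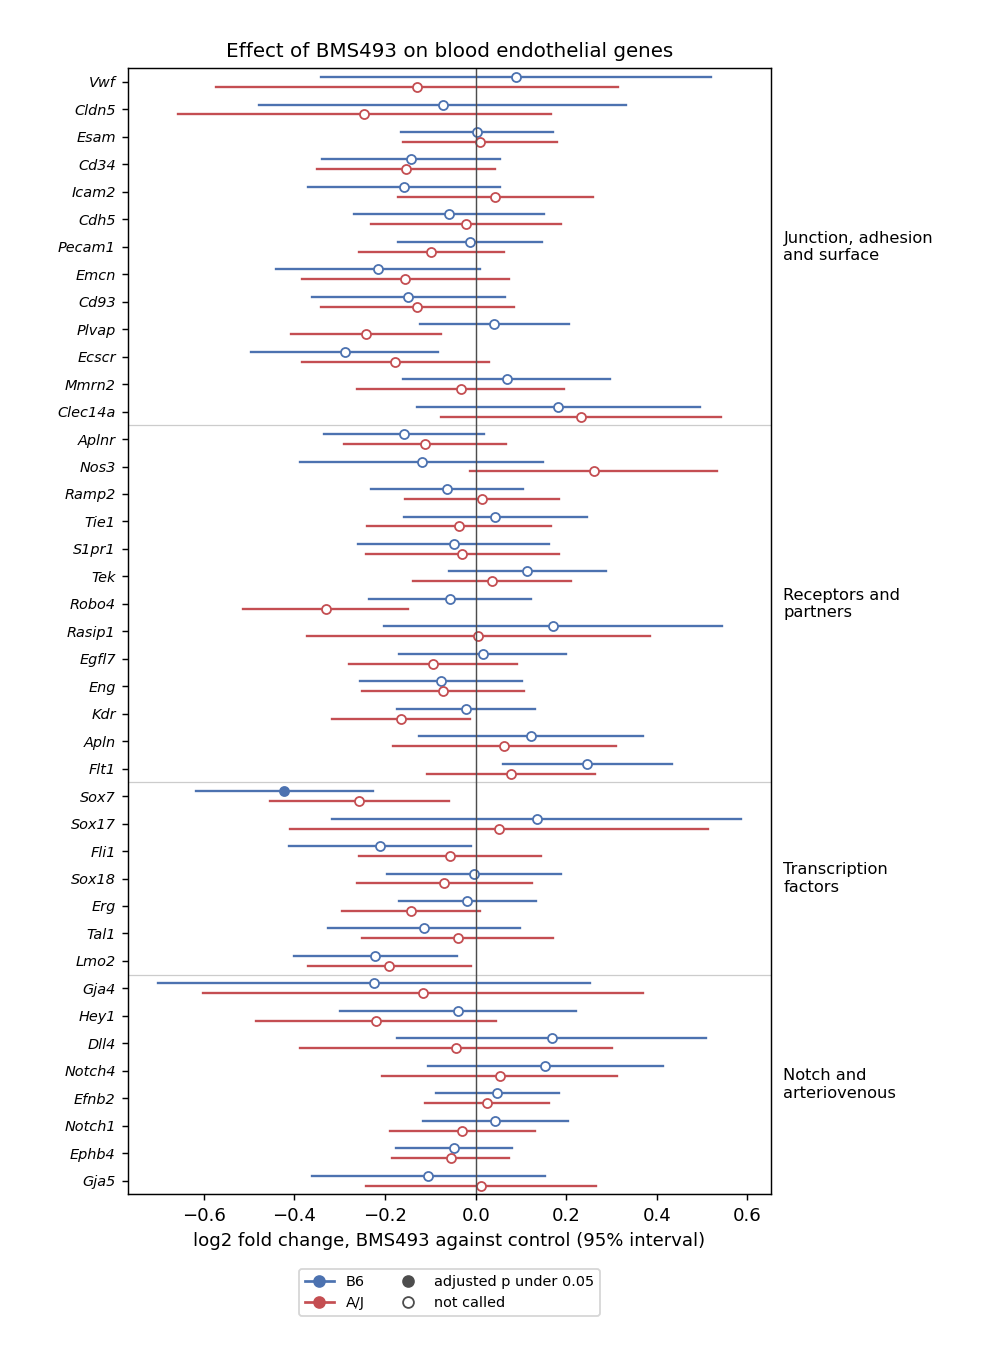
Log2 fold change of BMS493 against control with its 95% interval for each of the 41 genes (rows, grouped by role), in B6 (blue) and A/J (red), with filled points at an adjusted p under 0.05. The points lie on both sides of 0, spanning -0.42 to 0.25 (B6) and -0.33 to 0.26 (A/J), and the filled point is Sox7 in B6.

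Among the other vascular lists, few genes passed the adjusted threshold for BMS493. Of the 51 further endothelial genes, 0 were called in B6, with 4 at an unadjusted p under 0.05 against 9.11% of all genes tested, and 1 was higher in A/J. By unadjusted p under 0.05, 5 of the 51 passed in A/J and 6 in the average. The gene called in A/J was Fibin, a secreted factor, at 33.7, 30.6, 29.4 and 28.8 CPM in A/J controls and 41.003, 50.2, 60.1 and 48.4 CPM with BMS493 (0.70, adjusted p 0.000378). In the average over both strains Fibin (0.58, adjusted p 2.69e-05) and Pcdh17 (0.36, adjusted p 0.0336) were higher. Of the 38 signalling partners, 0 were called in either strain alone, with 10 at an unadjusted p under 0.05 in each, against 9.11% of all genes tested in B6 and 6.23% in A/J. In the average 13 of the 38 passed that p, against 10.8% of all genes tested, and the Notch target Hey2 (-0.54, adjusted p 0.0353) and the ephrin receptor Ephb2 (-0.23, adjusted p 0.0336) were lower. Among the lymphatic genes Sema3d, a semaphorin, was lower in B6 (-0.42, adjusted p 0.0314) and in the average (-0.38, adjusted p 0.000676). By unadjusted p under 0.05, 3 of the 8 lymphatic genes passed in B6, 3 in A/J and 5 in the average, against the same 9.11%, 6.23% and 10.8%. Their median log2 fold changes were -0.25, -0.20 and -0.24, with 7, 6 and 7 of the 8 values below 0. The pericyte and megakaryocyte lists gave 0 calls in B6, A/J and the average, with 1 and 0 genes at an unadjusted p under 0.05 in B6, 1 and 1 in A/J, and 0 and 0 in the average, where 9.11%, 6.23% and 10.8% of all genes tested passed. The genes of these lists named here were chosen after their values were seen.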

How the data were processed

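RNA of 16 fetal lung samples, 4 per group, was measured by sequencing. The deposited files hold raw counts per gene that the authors made with STAR, 1 file per library, and the submitters' processing notes also name FastQC, cutadapt and the build GRCm39. Tool versions and the annotation are not given in the sources used here. The column of counts made regardless of strand was used, without its 4 summary lines. Neither stranded column separates strands in these libraries, since the first held 51.0% to 52.0% of the counts of both. Symbols were matched by stable ID to GENCODE M21 for 51884 of 57180 IDs, which hold 98.9% of counts, and M21 exon lengths (GRCm38) served for levels per kilobase only. Genes were filtered with filterByExpr, which removed 39904, scaled by TMM and fitted with edgeR 4.0.16's robust quasi-likelihood test in R 4.3.3. All 16 libraries entered 1 model with 12 residual degrees of freedom, contrasts were taken between groups, and p-values were adjusted by Benjamini-Hochberg over all 17276 genes at a threshold of 0.05. Shown log2 CPM used a prior count of 2. Summaries, intervals (95%) and figures used Python 3.11.15, pandas 2.3.3, numpy 2.4.6, scipy 1.17.1 and matplotlib 3.10.9, and the scripts were tested on simulated data.

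The members and lists were chosen with earlier results of these data known. Values are given in full for Pecam1, Cdh5 and Kdr, for the 5 lowest and 5 highest fold changes among genes called in each strain comparison, for every gene called in a treatment comparison, and for the 2 smallest p-values of each treatment comparison. Values by library of Tie1, Tek, Clec14a, Apln, Rbpj, Itga2b and Fibin, and of Sftpc in the B6 BMS493 group, were added after they were seen. Of other lists at most the 3 lowest and 3 highest called genes per strain comparison were named. Apela, Car4, Vtn, Ahsp, Gp1bb, Gp6, Nppa and Nppb of those lists were not tested. Alternatives were RLE scaling, DESeq2 1.42.0, 2 other filters, the stranded columns, a library set covariate, a block for the replicate number, fits on the compared libraries only, a fold change threshold and leaving out each library. Depth was 15207539 to 24146224 assigned fragments per library.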

Additional observations from a re-analysis of the deposited data

Results flagged for a closer look

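Among 104 groups of 4 libraries examined for the 26 genes other than Sftpc whose values are given by library, 4 held a library far from the rest. Chance gives such a gap in about 1 group in 20. Emcn in A/J control replicate 4 stood at 34.5 CPM while the other 3 libraries of its group lay between 36.8 and 37.0 CPM, a gap of 0.923 of the group's range against a critical value of 0.829. Rbpj in B6 BMS493 replicate 3 stood at 126.2 CPM, below the other 3 at 146.9 to 147.2 CPM (0.983 of the range). Itga2b stood at 12.7 CPM in B6 control replicate 4, above the other 3 at 9.13 to 9.44 CPM (0.915), and at 5.26 CPM in A/J BMS493 replicate 3, above the other 3 at 3.65 to 3.90 CPM (0.848).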

How the results depend on the processing

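The number of the 41 genes called in the strain comparisons stayed within 1.5 times the reported value under every alternative except a test against a log2 fold change of 0.25, which called 5 in controls and 9 with BMS493. Of all 17276 genes that test called 808 lower in controls and 1025 with BMS493, against 1700 and 2077 without the threshold. Under the other settings that kept all 16 libraries the counts of the 41 genes were 15 to 22 in controls and 19 to 24 with BMS493, and with only the 8 compared libraries they were 28 and 17. Vwf in controls was not called with RLE scaling (0.0510), the library set covariate (0.0512), no filter (0.110) or the second strand column (0.0679). Without the filter Eng was called in controls (0.0267) and with BMS493 (0.0444), Plvap in controls (0.0140) and Notch4 with BMS493 (0.0119), and DESeq2 called Sox17 with BMS493 (0.0401). Beside Erg, Robo4 and Vwf, a stranded column lost Egfl7 (0.0559 and 0.0750), Emcn (0.0917), Fli1 (0.199) and Sox18 (0.0760) in controls, and Dll4 (0.050019), Emcn (0.206), S1pr1 (0.0613) and Sox7 (0.0604) with BMS493. Leaving out each library gave 15 to 23 and 17 to 26 calls, with medians of -0.33 to -0.26 and -0.39 to -0.27. The BMS493 calls were fewer and moved more. In B6 the count was 0 with only the compared libraries, with either stranded column or with the fold change threshold, and 0 to 1 when a library was left out. In A/J it was 1 with DESeq2, without the filter or with the second strand column, and 0 to 1 when a library was left out. Averaged over both strains it was 2 without the filter, 0 with the fold change threshold and 1 to 3 when a library was left out, and the interaction gave 0 throughout these. Over all genes BMS493 called 73 in B6 and 84 in A/J, against 159 and 158 with DESeq2 and 260 and 178 without the filter, 27 and 133 with only the compared libraries, and 18 and 37 with the fold change threshold. Averaged over both strains 237 were called, against 397, 487 and 50 with DESeq2, no filter and the threshold. Leaving out each library gave 27 (B6 control replicate 1) to 201 (B6 BMS493 replicate 1) in B6, 52 (A/J BMS493 replicate 3) to 121 (B6 BMS493 replicate 3) in A/J and 165 (B6 control replicate 2) to 371 (B6 BMS493 replicate 1) averaged. The causes were not tested.

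Signs turned for uncalled BMS493 values near 0. Leaving out each library in turn, Pecam1 ran from -0.10 to 0.030 in B6, Cdh5 from -0.16 to 0.022 and Kdr from -0.078 to 0.049 in the same strain, and Cdh5 from -0.098 to 0.041 in A/J. Pecam1 in B6 was 0.0026 with the second strand column.

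Same-numbered libraries had correlated deviations of -0.147 to 0.145, so the replicate numbers were not taken to pair them. With the replicate block the counts were 22 and 22 for the strain comparisons, 1 in B6, 0 in A/J, 1 averaged and 0 for the interaction. The block called Cd93 in controls (0.0175) and with BMS493 (0.0299), and Cldn5 (0.0408) and Plvap (0.0197) in controls, and it lost no call of the strain comparisons.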

Other observations

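In lists outside the blood vessels, BMS493 moved single genes. In B6 the mesenchymal genes Dcn, a matrix proteoglycan, and Foxf1, a forkhead factor, were lower (log2 fold change -0.80, adjusted p 2.46e-05 and -0.40, adjusted p 0.0233), while the homeobox gene Meox2 was higher in B6 (0.35, adjusted p 0.0164) and in A/J (0.51, adjusted p 9.42e-05). The mast cell proteases Cpa3 and Cma1 were higher in A/J (1.55, adjusted p 0.00320 and 2.03, adjusted p 0.00281). Averaged over both strains, Upk3b of the mesothelium and Tubb3 of neurons were lower (-0.38, adjusted p 0.00789 and -1.03, adjusted p 0.0292). These genes were named after their values were seen.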
